A study of Mus musculus with 235 samples.

Results

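This contrast asks whether dexamethasone changed gene expression by different amounts in 2 sets of mouse brain regions. One set held the regions labelled PFC, dCA1, dDG, vCA1 and vDG (5 regions, 146 libraries), and the other held AMY, CER and PVN (3 regions, 89 libraries), which together make up every library of the series. The regions were put into sets by their names and not by any measured value. All libraries came from male C57Bl/6 mice aged 3 months that had been group-housed. Dexamethasone, which mimics the stress hormone corticosterone, was injected into the peritoneum of 15 of the 30 animals at 10 mg/kg, and 0.9% saline as vehicle into the other 15. The treatment lasted 4 h. The 5 regions held 72 dexamethasone and 74 vehicle libraries, and the 3 regions held 45 and 44. Each library is a punch of frozen coronal sections from 1 region of 1 animal, and 26 animals had libraries of all 8 regions. Messenger RNA was read at its 3' end, so that a count stands for a transcript tag and is not scaled by gene length. A library held 742957 counts in the median (lowest 268538, highest 1451422), and RNA integrity (RIN) averaged 7.75 and 7.81 in the arms of PFC and 5.69 to 6.69 in those of the other regions.

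Glucocorticoids act on a receptor of the nuclear receptor family that moves into the nucleus once hormone is bound and raises or lowers the transcription of its target genes. The receptor is present in neurons, glia and vessels of the brain. Hippocampal and cortical neurons in addition carry the mineralocorticoid receptor, and the paraventricular nucleus of the hypothalamus is known for the feedback by which glucocorticoids restrain their own release.

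The region names are used as the labels give them. Vehicle levels were checked against known markers. Summed over 12 listed genes of cortical and hippocampal glutamatergic neurons, the mean level was 5480 to 12200 CPM (counts scaled to a common library total) in the 5 regions and 1290 to 3020 CPM in AMY, CER and PVN. None of these 12 genes was at 0 in every library of any region. PVN held the hypothalamic peptide transcripts Oxt at a mean of 275 CPM and Pmch at 843 CPM, against 34.2 and 43.8 CPM in AMY and no more than 5.04 and 11.6 CPM elsewhere. The labels do not spell out CER, and markers of cerebellar neurons were mixed in it. Gabra6, which defines cerebellar granule cells, was at 0 in all 15 vehicle libraries of CER, and Pcp2 of Purkinje cells had a mean of 0.514 CPM. En2 and Barhl1 had their highest regional means there, 11.6 and 3.76 CPM, with spreads that overlap those of vDG (8.25 and 2.25 CPM). All 10 listed markers together summed to a mean of 173 CPM in CER and 272 to 672 CPM in the other regions. The low sum in CER holds a low Calb1, with a mean of 43.8 CPM there and 154 to 245 CPM in the other regions. Calb1 was thus well expressed in all of those, and the sum does not rank the regions by cerebellar content. The name is therefore left as CER, and the set is called AMY, CER and PVN. Prox1, the transcription factor of dentate granule cells, averaged 521 CPM in dCA1 and 462 CPM in dDG, so that these 2 punches are not told apart by it. Gabra6, Cbln3 and Pcp2 summed to 198 to 1020 CPM in 4 vDG libraries and to 819 CPM in 1 vCA1 library, where the other libraries of those regions stayed under 100 CPM. The vDG library at 1020 CPM was from the dexamethasone arm and the rest of these 5 from the vehicle arm, so the arms were not alike in this. Leaving out these 5 libraries gave 138 genes in place of the 148 described next.

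Of 11053 genes tested, 148 (1.34%) changed by different amounts in the 2 sets at an adjusted p of 0.05 (edgeR quasi-likelihood test of 1 contrast with each animal as a block, Benjamini-Hochberg over all genes). Here and below, the difference is the mean log2 change (dexamethasone minus vehicle) of the 5 regions minus that of the 3. In 77 genes (0.697% of those tested) the difference was positive, with a median of 0.54 and a range of 0.22 to 1.65. In 71 genes (0.642%) it was negative, with a median of -0.49 and a range of -1.43 to -0.20. Differences of at least 1 on the log2 scale were found in 3 of the 77 and 2 of the 71 genes. At an unadjusted p of 0.05, 946 genes (8.56%) passed. In bulk punches, fewer cells of a type and less RNA per cell cannot be told apart.

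Negative differences were mostly inductions that were weaker in PFC and the hippocampal punches. Of the 71 genes, 49 rose in both sets, with a median change of 0.55 in the 5 regions (range 0.12 to 2.96) and 1.11 in AMY, CER and PVN (range 0.36 to 3.52). A further 14 rose in the 3 regions without passing in the 5, 5 fell in the 5 regions without passing in the 3, 2 (Klf7 and Sox9) fell in both, and 1 (Sema4c) passed in neither. Over all genes, 9.27% rose and 8.62% fell in the 5 regions, and 6.29% rose and 5.63% fell in the 3 (limma with voom weights and the animal as a random block). The sets share no library but share their animals.

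Positive differences had another make-up. Of the 77 genes, 38 rose in the 5 regions and did not pass in AMY, CER and PVN. Another 23 fell in AMY, CER and PVN and did not pass in the 5 regions. Only 7 rose in both sets, 5 fell in both, 2 passed in opposite directions and 2 passed in neither. A gene that passes in 1 set and not in the other is counted here because the difference itself passed. In the plot of the 2 sets' changes, the 71 genes lie below the diagonal mainly at the upper right, and the 77 lie above it mainly around the origin.

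**Figure D1:**
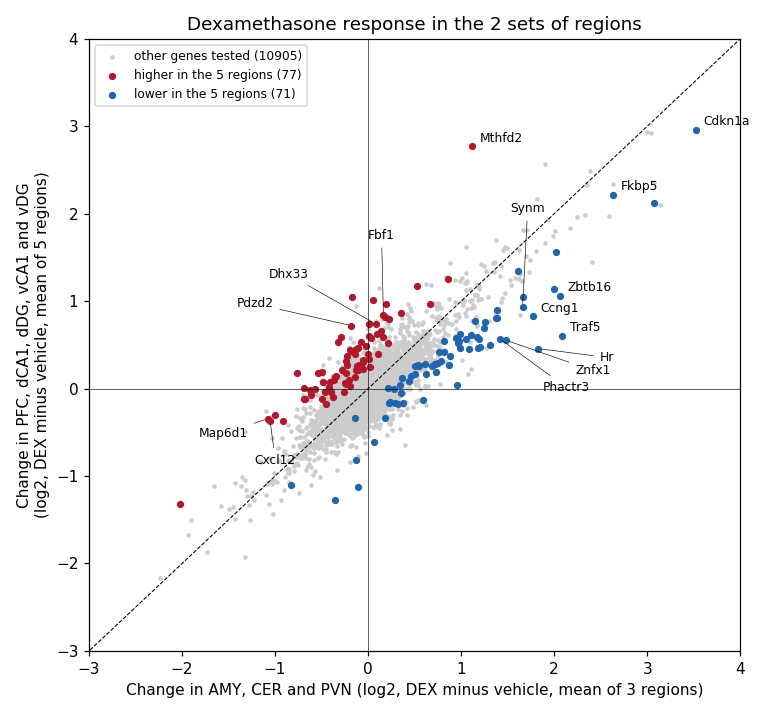
Each point is 1 of 11053 genes: the x axis is its mean log2 change (dexamethasone minus vehicle) in AMY, CER and PVN, the y axis that in PFC, dCA1, dDG, vCA1 and vDG, and the dashed line marks equal change. The 77 genes with a positive difference (red) lie above the line, with Mthfd2 farthest from it, and the 71 with a negative difference (blue) lie below it, most of them where both changes are above 0.

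The regional changes behind these means were well separated in many of the genes. In 104 of the 148 (70.3%), every one of the 5 regional changes lay on 1 side of every one of the 3; among all genes tested this held for 692 (6.26%). That share follows in part from how the 148 were selected and is a description. Among the 3 regions, CER had the change farthest from the direction of the difference in 43 of the 77 positive and 45 of the 71 negative genes, against 22 and 15 for PVN and 12 and 11 for AMY. Without the libraries of CER, 50 genes passed (22 positive, 28 negative), 48 of them among the 148. Without any other single region, 116 to 169 genes passed, and the positive genes numbered 44 without PVN. No gene of the 148 changed the sign of its difference when a region was left out, and 34 (17 positive) passed in all 8 of these fits. These fits share most libraries with the one that chose the 148, and 85.3% to 91.6% of all genes tested kept their sign in them. Tissue was punched on several dates; within each of the 4 dates with at least 3 animals per arm, at least 98.0% of the 148 differences had the same sign as over all dates. The 148 were chosen on these same libraries, so this is a description and no independent check; among all genes tested, 66.2% to 69.3% had the same sign.

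Mthfd2 had the largest difference and the smallest p. It encodes a mitochondrial enzyme of folate one-carbon metabolism, which carries single-carbon units for purine and thymidylate synthesis. In the 5 regions its vehicle libraries lay between 1.57 and 27.2 CPM (median 10.9) and its dexamethasone libraries between 41.7 and 174 CPM (median 71.4). Every dexamethasone library of those regions was above every vehicle library. In AMY, CER and PVN the vehicle libraries lay between 9.28 and 54.4 CPM (median 19.9) and the dexamethasone libraries between 21.7 and 89.4 CPM (median 44.7), and the arms overlapped. The change was 2.77 ± 0.09 (log2, SE) in the 5 regions, a 6.82-fold rise, and 1.12 ± 0.09 in the 3, a 2.17-fold rise, and the difference was 1.65 ± 0.12 (adjusted p = 1.14e-27). The regional changes ran from 2.60 in dDG to 2.86 in dCA1 and from 0.90 in CER to 1.3 in AMY. Under vehicle the order was the other way: Mthfd2 was lower in the 5 regions by a log2 difference of -1.0 ± 0.10 (adjusted p = 1.19e-16), with means of 8.01 CPM in PFC and 33.8 CPM in CER. After dexamethasone it was higher there by 0.65 ± 0.07. Of 19 tested genes on a list of 22 one-carbon and serine genes, Mthfd2 was the only one whose response differed (background 1.34%); 2 rose and 2 fell in the 5 regions (background 9.27% and 8.62%) and 3 rose in the 3 (6.29%).

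Among the other genes with a positive difference, 6 of the 12 with the smallest p rose in the 5 regions and did not pass in AMY, CER and PVN. Dhx33, an RNA helicase of the DEAH-box family, is an example with a large vehicle difference. Its vehicle means were 109 CPM in dCA1, 108 CPM in dDG, 39.7 to 47.5 CPM in PFC, vCA1 and vDG, and 28.3 to 31.3 CPM in AMY, CER and PVN. The 5 regions moved from 23.4 to 165 CPM under vehicle (median 52.5) to 30.2 to 280 CPM under dexamethasone (median 84.7), so that the arms overlapped over the set. The 3 regions went from 7.42 to 51.7 CPM (median 29.8) to 19.8 to 46.5 CPM (median 30.8). The change was 0.74 ± 0.07 in the 5 regions (adjusted p = 1.68e-21) and 0.08 ± 0.11 in the 3 (adjusted p = 0.796), a difference of 0.67 ± 0.11 (adjusted p = 5.61e-06). It passed in each of the 5 regions tested alone and in none of the 3. Taken region by region, 6.31% of genes passed in PFC, 4.76% in dCA1, 3.99% in dDG, 5.87% in vCA1, 4.01% in vDG, 5.45% in AMY, 5.98% in CER and 5.71% in PVN.

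Fbf1, a protein of the fibres that anchor cilia, showed a similar response, and its vehicle difference between the sets did not pass (0.07 ± 0.08, edgeR adjusted p = 0.485). Its medians under vehicle were 20.8 CPM in the 5 regions (range 7.68 to 40.7) and 19.7 CPM in the 3 (range 9.27 to 39.4). Under dexamethasone they were 36.2 CPM (15.8 to 73.9) and 21.6 CPM (10.9 to 42.5). The arms overlapped in both sets. The change was 0.84 ± 0.07 in the 5 regions and 0.16 ± 0.09 in the 3 (adjusted p = 0.35), and the difference was 0.67 ± 0.11 (adjusted p = 7.15e-06). Parp1, the poly(ADP-ribose) polymerase that responds to DNA breaks, changed by 0.45 ± 0.06 and -0.13 ± 0.09, a difference of 0.60 ± 0.10. Jdp2, a repressor of the AP-1 family, changed by 0.44 ± 0.06 and -0.20 ± 0.09, a difference of 0.63 ± 0.10. Fbxo10, an F-box subunit of ubiquitin ligases, changed by 0.49 ± 0.06 and -0.03 ± 0.08, a difference of 0.53 ± 0.09. Pdzd2, a protein with several PDZ domains, had the widest spread of this group. It changed by 0.72 ± 0.10 in the 5 regions and by -0.18 ± 0.17 in the 3, where the regional changes ran from -0.64 in CER to 0.28 in AMY. In none of these 5 genes did the change in AMY, CER and PVN pass (adjusted p from 0.155 to 0.922). Epha10, an Eph receptor without kinase activity, rose in both sets, by 0.79 ± 0.06 and 0.22 ± 0.08, and of the 3 regions it passed in 1, AMY, with 0.60.

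In 2 genes the sets passed in opposite directions. Acss1 encodes the mitochondrial enzyme that makes acetyl-CoA from acetate. In the 5 regions its vehicle libraries lay between 33.1 and 132 CPM (median 60.8) and its dexamethasone libraries between 36.4 and 142 CPM (median 74.0). In AMY, CER and PVN the vehicle libraries lay between 30.7 and 131 CPM (median 64.5) and the dexamethasone libraries between 29.4 and 92.2 CPM (median 54.1). Both pairs of arms overlapped over most of their range. Acss1 rose by 0.32 ± 0.06 (adjusted p = 1.22e-06) in the 5 regions and fell in the 3, with a change of -0.24 ± 0.08 (adjusted p = 0.0162). Ppp1r16b, a regulatory subunit of protein phosphatase 1, rose by 0.15 ± 0.05 (adjusted p = 0.0306) and changed by -0.34 ± 0.07 (adjusted p = 6.06e-05). Its rise is small: no region of the 5 passed alone, and PFC had a change of -0.08. The differences were 0.58 ± 0.09 for Acss1 and 0.50 ± 0.09 for Ppp1r16b.

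Cxcl12 and Map6d1 fell in both sets, and fell less in the 5 regions. Cxcl12 is the chemokine that binds the receptor Cxcr4. Its vehicle libraries lay between 25.3 and 115 CPM (median 55.8) in the 5 regions and between 16.2 and 58.1 CPM (median 34.0) in the 3. Under dexamethasone they lay between 17.4 and 103 CPM (median 42.1) and between 6.37 and 34.6 CPM (median 16.2). The arms overlapped in both sets. The changes were -0.37 ± 0.06 and -1.05 ± 0.11, a difference of 0.69 ± 0.11 (adjusted p = 8.09e-07), and the vehicle level was already higher in the 5 regions by 0.75 ± 0.06. Map6d1, a relative of the microtubule-stabilising protein Map6, had changes of -0.35 ± 0.08 and -1.08 ± 0.11 with no vehicle difference that passed (-0.12, adjusted p = 0.173). It passed in all 3 of AMY, CER and PVN tested alone and in none of the 5 other regions.

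**Figure D2:**
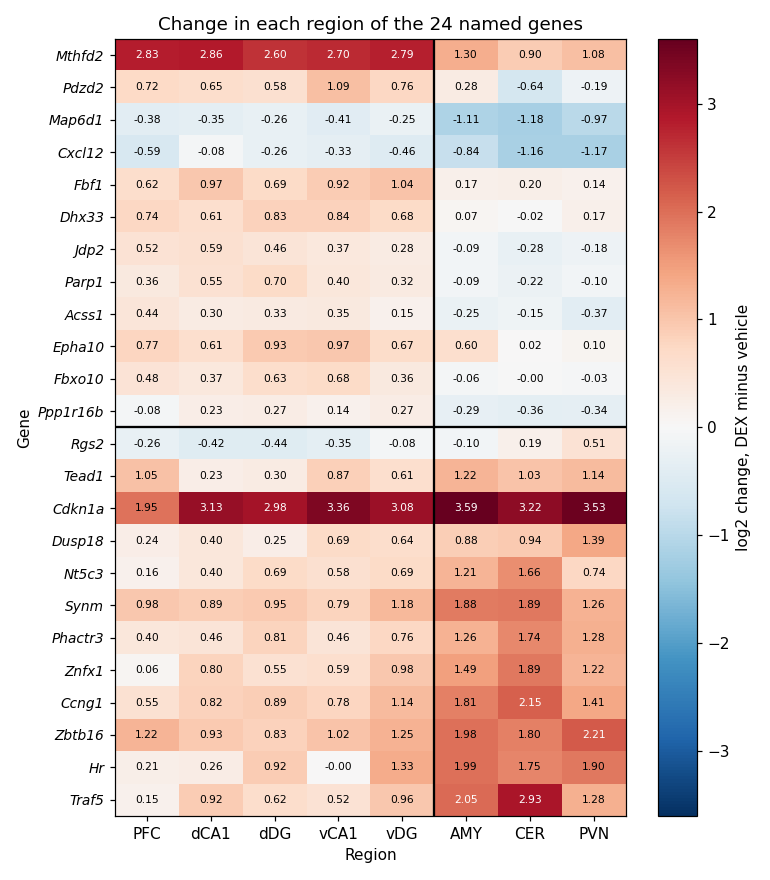
Log2 change (dexamethasone minus vehicle) in each of the 8 regions (columns) for the 24 genes with the smallest p, 12 with a positive difference above the horizontal line and 12 with a negative difference below it; the vertical line divides the 2 sets, and red is a rise and blue a fall. Mthfd2 runs from 2.60 to 2.86 to the left of the line and from 0.90 to 1.3 to its right. The 12 lower genes are redder on average at the right, and among them Rgs2 is below 0 in every region at the left.

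Among genes induced in both sets and less in the 5 regions, Phactr3 had the smallest p. It encodes a protein that binds actin and protein phosphatase 1. In the 5 regions its vehicle libraries lay between 81.2 and 329 CPM (median 163) and its dexamethasone libraries between 126 and 348 CPM (median 246), with overlap. In AMY, CER and PVN the vehicle libraries lay between 87.8 and 187 CPM (median 125) and the dexamethasone libraries between 208 and 494 CPM (median 350). There, every dexamethasone library was above every vehicle library. The changes were 0.57 ± 0.05 and 1.41 ± 0.06, that is 1.49-fold and 2.66-fold, and the difference was -0.84 ± 0.07 (adjusted p = 1.77e-19). The regional changes reached from 0.39 in PFC to 0.81 in dDG and from 1.26 in AMY to 1.74 in CER.

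Ccng1, cyclin G1, known as a target of p53, followed the same pattern. Its medians went from 56.0 CPM (range 32.7 to 113) to 98.3 CPM (62.2 to 189) in the 5 regions. In AMY, CER and PVN they went from 40.6 CPM (15.8 to 64.6) to 131 CPM (70.3 to 243), again without overlap of the arms. The changes were 0.83 ± 0.05 and 1.77 ± 0.07, and the difference was -0.95 ± 0.09 (adjusted p = 6.35e-19). Under vehicle Ccng1 was higher in the 5 regions by 0.50 ± 0.06, and after dexamethasone it was lower there by a log2 difference of -0.45 ± 0.06. Phactr3 likewise went from 0.35 ± 0.05 to -0.49 ± 0.05.

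Zbtb16, which encodes the transcriptional repressor PLZF and is a known glucocorticoid target, rose 2.09-fold in the 5 regions and 4.17-fold in the 3. Its vehicle level was higher in the 5 regions by 1.20 ± 0.08 (adjusted p = 1.46e-26), with means of 33.7 to 52.7 CPM against 14.9 to 22.5 CPM. After dexamethasone the sets lay closer, at 0.23 ± 0.06: the medians were 86.5 CPM (range 50.3 to 146) and 74.3 CPM (range 30.8 to 116). The difference in response was -0.97 ± 0.10 (adjusted p = 2.36e-15). Dusp18, a dual-specificity phosphatase, showed the same order of levels, with 0.83 ± 0.08 under vehicle and 0.21 ± 0.06 after dexamethasone.

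**Figure D3:**
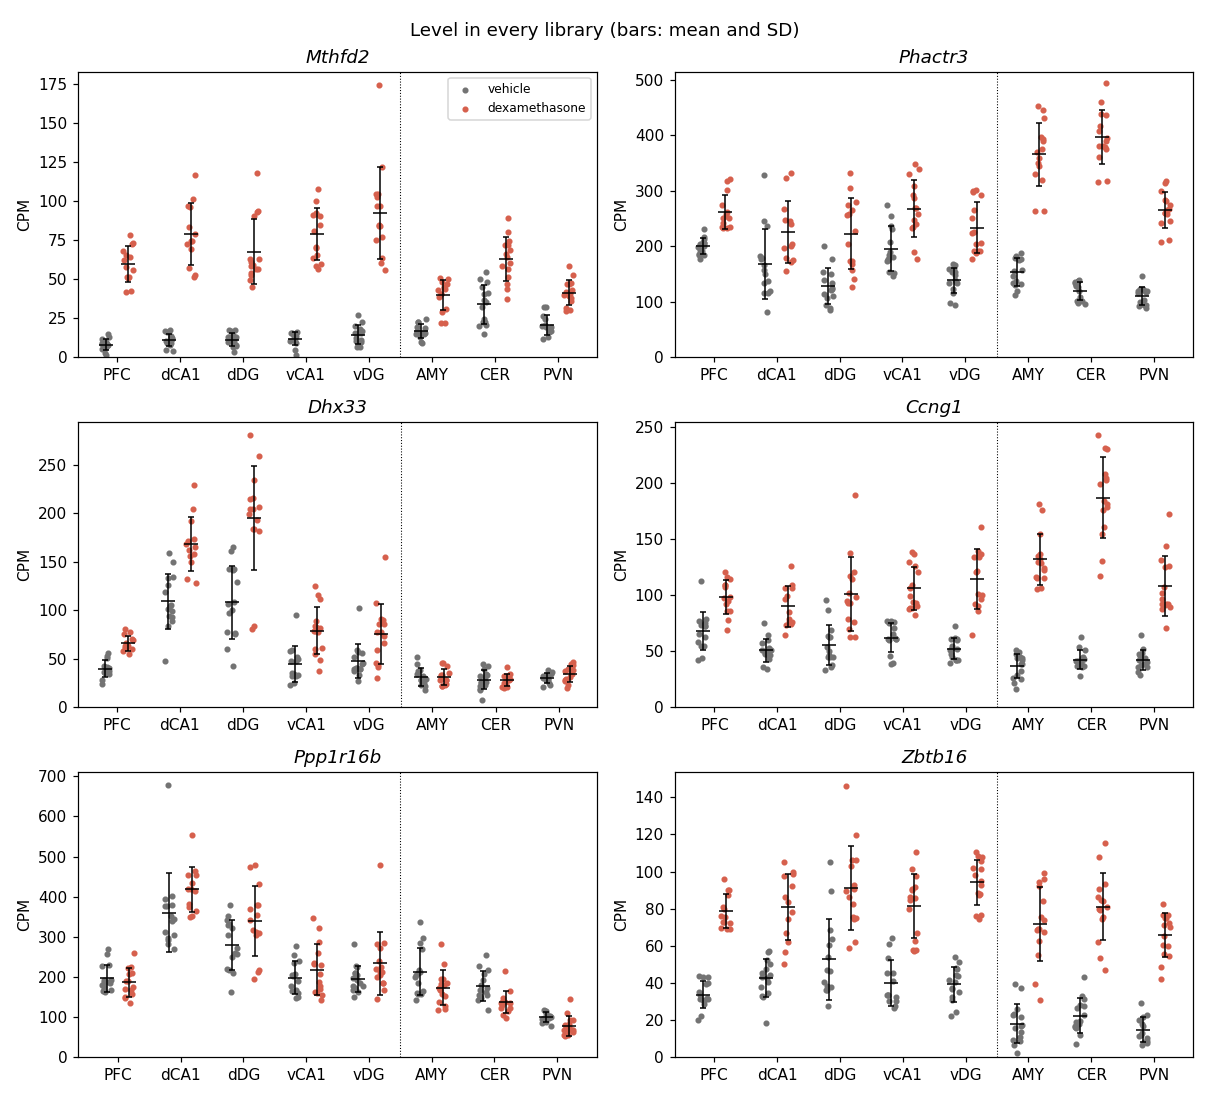
Level (CPM) of 6 genes in every library by region, vehicle in grey and dexamethasone in red, with bars for the mean and SD of each group and a dotted line between the 2 sets. Mthfd2 rises most to the left of the line and Phactr3, Ccng1 and Zbtb16 most to its right, Dhx33 rises to the left of it, and the arms of Ppp1r16b overlap in every region.

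Synm, Nt5c3 and Znfx1 had vehicle levels that did not pass between the sets (adjusted p from 0.0536 to 0.35). Synm encodes the intermediate filament protein synemin. It rose by 0.94 ± 0.06 in the 5 regions and 1.66 ± 0.07 in the 3, and its medians went from 65.9 to 125 CPM and from 64.3 to 219 CPM. Nt5c3, a pyrimidine nucleotidase, rose by 0.47 ± 0.06 and 1.18 ± 0.07, with the largest regional change, 1.66, in CER and the smallest, 0.16, in PFC. Znfx1, a helicase of antiviral defence, rose by 0.55 ± 0.07 and 1.49 ± 0.09; PFC had a change of 0.06 and CER one of 1.89. The exons of Znfx1 share 1.00% of their bases with Zfas1 on the other strand, which had 14867 counts in all libraries together against 7123 for Znfx1, and those of Synm share 1.06% with Ttc23 (334 counts against 20486). Whether counting used strand is not given in the sources used here, so reads in those bases cannot be told apart.

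Traf5 and Hr had the largest negative differences. Traf5, an adaptor of tumour necrosis factor receptors, had few counts: its vehicle libraries lay between 0 and 18.4 CPM (median 4.53) in the 5 regions and between 0 and 12.3 CPM (median 3.00) in the 3. Under dexamethasone the libraries lay between 0 and 19.7 CPM (median 7.56) and between 2.10 and 32.8 CPM (median 15.6). The arms overlapped in both sets. The changes were 0.61 ± 0.14 and 2.09 ± 0.17, and the difference was -1.43 ± 0.21 (adjusted p = 1.48e-07), with 2.93 in CER and 0.15 in PFC. Its exons share 4.49% of their bases with Gm26879 on the other strand, which had 3 counts in all libraries together.

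Hr, a nuclear receptor corepressor that thyroid hormone controls in brain, was higher in AMY, CER and PVN already under vehicle (difference -1.30 ± 0.13) and rose there by 1.83 ± 0.16. Vehicle medians by region were 6.87 to 13.7 CPM in the 5 regions, 11.6 CPM in AMY, 30.4 CPM in CER and 33.0 CPM in PVN. Dexamethasone medians were 8.38 to 32.7 CPM in the 5 regions, 63.4 CPM in AMY, 107 CPM in CER and 173 CPM in PVN. The change of the 5 regions, 0.46 ± 0.20, did not pass (adjusted p = 0.0956), although vDG passed alone with 1.33 ± 0.35 (adjusted p = 0.0163). In CER every dexamethasone library was above every vehicle library, and in AMY and PVN the arms overlapped. The difference in response was -1.35 ± 0.21 (adjusted p = 8.25e-07).

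Tead1, a transcription factor of the Hippo pathway, rose by 0.62 ± 0.05 and 1.11 ± 0.07, and the sets' regional changes overlapped because PFC, with 1.05, lay above CER, with 1.03. Rgs2, which shortens signalling by G proteins, fell in the 5 regions (-0.34 ± 0.06, adjusted p = 2.46e-06) and had a change of 0.19 ± 0.07 in the 3 that did not pass (adjusted p = 0.0605). Its difference was -0.50 ± 0.09 (adjusted p = 1.75e-05). PVN passed alone in the other direction, with 0.51, while AMY had -0.10 and CER 0.19.

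The 24 genes, chosen by their p in these same libraries, are described here by animal. For the 26 animals with all 8 libraries (13 per arm), the mean log2 CPM of the 5 regions minus that of the 3 was taken within the animal. For Mthfd2 it ran from -1.48 to -0.34 (median -0.71) in vehicle animals and from 0.21 to 1.35 (median 0.61) in dexamethasone animals. The arms were also without overlap for Phactr3, Ccng1, Nt5c3 and Znfx1; among all 11053 genes tested, the arms of 6 (0.0543%) did not overlap. For the other 19 of the 24 the arms overlapped, and at least 12 of 13 dexamethasone animals lay on 1 side of the vehicle median, as in 5.18% of all genes tested. For Hr the vehicle animals ran from -1.98 to -0.13 (median -1.20) and the dexamethasone animals from -3.21 to -1.90 (median -2.84).

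**Figure D4:**
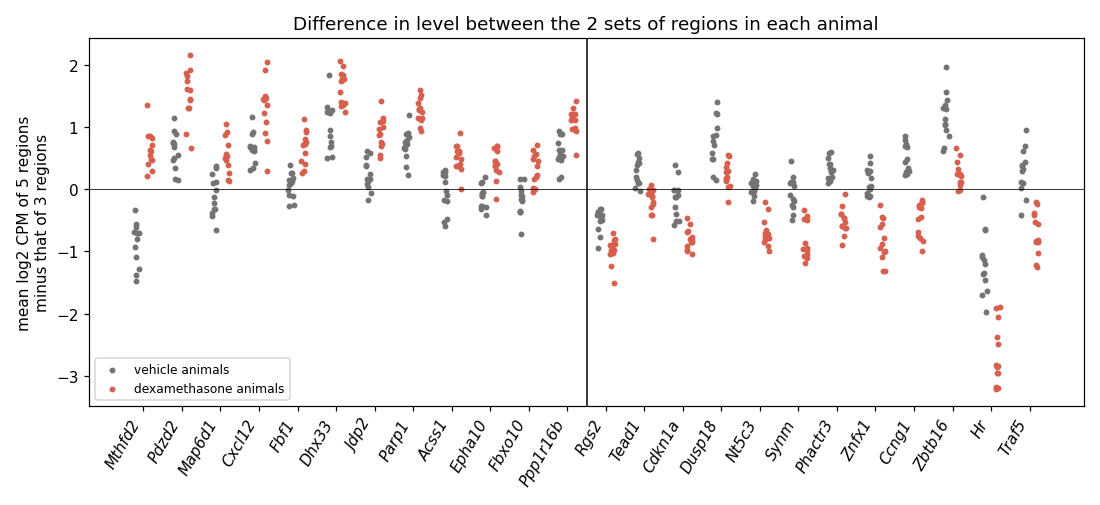
Mean log2 CPM of PFC, dCA1, dDG, vCA1 and vDG minus that of AMY, CER and PVN in each of 26 animals (13 vehicle in grey, 13 dexamethasone in red) for the 24 genes, with the positive differences in response to the left of the vertical line. The 2 colours do not overlap for Mthfd2, Phactr3, Ccng1, Nt5c3 and Znfx1, in genes chosen on these libraries; 0.0543% of all genes tested do not overlap.

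The known glucocorticoid response genes on a list of 20 behaved alike in direction. All 19 tested members rose in both sets, where 9.27% of all genes rose in the 5 regions and 6.29% in the 3. The median change of the members was 1.06 in the 5 regions and 1.27 in the 3, against -0.01 in both sets over all genes. Of these, 6 had a negative difference, where the background is 0.642%: Zbtb16, Cdkn1a, Fkbp5, Sgk1, Mertk and Nfkbia. None had a positive difference with edgeR or DESeq2, and 1 did at an unadjusted p of 0.05. The list's median difference was -0.12, and that of all genes 0.00. The list was chosen with results of these data known and is no independent support.

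Cdkn1a, the cell-cycle inhibitor p21, had the largest changes of the list: 2.96 ± 0.09 in the 5 regions and 3.52 ± 0.10 in the 3, or 7.77-fold and 11.5-fold. Its vehicle libraries lay between 10.4 and 134 CPM (median 43.8) and between 19.7 and 185 CPM (median 50.4). The dexamethasone libraries lay between 202 and 731 CPM (median 338) and between 282 and 918 CPM (median 599), above every vehicle library in either set. The difference, -0.59 ± 0.10 (adjusted p = 9.78e-06), depended on PFC: PFC had a change of 1.95 and the 4 hippocampal punches 2.98 to 3.36, and without PFC the adjusted p was 0.0693.

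Fkbp5, a co-chaperone that lowers the receptor's affinity for hormone, rose 4.65-fold and 6.21-fold, with a difference of -0.47 ± 0.10 (adjusted p = 0.000559). In the 5 regions it went from 2.76 to 52.1 CPM under vehicle (median 26.1) to 70.6 to 292 CPM (median 108). In the 3 regions it went from 3.51 to 38.7 CPM (median 15.7) to 68.7 to 158 CPM (median 99.5), and the arms were apart in both sets. PFC had the highest change of all regions, 2.79, and dCA1 and dDG the lowest, 1.67 and 1.66. The adjusted p was 0.0891 without dCA1, 0.0848 without dDG and 0.0599 without CER. Under vehicle Fkbp5 was higher in the 5 regions by 0.60 ± 0.09, and after dexamethasone by 0.13 ± 0.05.

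Sgk1, a kinase that regulates ion transport, had a difference of -0.43 ± 0.11 (adjusted p = 0.00788), and Nfkbia, the inhibitor of NF-kappaB, one of -0.29 ± 0.07 (adjusted p = 0.00643). Neither passed without CER (adjusted p = 0.224 and 0.254) or without the animal block (0.505 and 0.235) or in a fit with 1 value per animal, the mean of its 5 regions minus that of its 3 (0.0862 and 0.091), and Sgk1 did not pass without AMY (0.0634). Mertk, a receptor kinase by which phagocytes take up dead cells, had a difference of -0.35 ± 0.09 (adjusted p = 0.00983), which was lost without PFC (0.185), CER (0.0715) or PVN (0.506). Zbtb16 passed whichever region was left out. None of 8 tested genes for corticosteroid receptors and steroid handling differed between the sets with edgeR or DESeq2, and 0 did at an unadjusted p of 0.05; 3 fell in the 5 regions and 1 in the 3 (background 8.62% and 5.63%).

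Of 18 tested core clock genes, 3 had a positive difference, where the background is 0.697%. None had a negative one with edgeR or DESeq2, and 3 did at an unadjusted p of 0.05. Per3, a period gene that damps the clock's own transcription, rose in the 5 regions by 0.40 ± 0.06 and had a change of -0.14 ± 0.09 in the 3 (adjusted p = 0.389), a difference of 0.55 ± 0.10 (adjusted p = 1.81e-05). Its libraries lay between 46.4 and 186 CPM (median 110) under vehicle and 57.5 and 306 CPM (median 145) under dexamethasone in the 5 regions, and between 47.2 and 128 CPM (median 98.2) and 30.6 and 152 CPM (median 85.2) in the 3. The arms overlapped in both. Bhlhe40, a repressor within the clock, fell in the 3 regions, with a change of -0.47 ± 0.08 there and -0.04 ± 0.05 in the 5. Its difference, 0.42 ± 0.09, rested on PVN, where the change was -0.83, and its adjusted p without PVN was 0.449. Hlf, a transcription factor under clock control, had a difference of 0.31 ± 0.08 (adjusted p = 0.0236) and lost it without any 1 of dDG, vCA1, CER or PVN (adjusted p from 0.0572 to 0.384) and with 1 value per animal (0.312).

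The lists of potassium channel, GABA and glutamate receptor, neuropeptide, activity, and axon and adhesion genes each held at most 1 gene of the 148, where 1.34% of all genes are among them. Of 42 tested potassium channel genes, 1 differed: Kcnt1, a sodium-activated channel, with 0.62 ± 0.14 (adjusted p = 0.00373). It rose in both sets, and dCA1 had the lowest vehicle mean, 7.11 CPM, and the highest change, 2.26; the difference did not pass without dCA1 (adjusted p = 0.422) or AMY (0.0561). Of 14 GABA receptor subunits, Gabra4 differed (0.49 ± 0.13, adjusted p = 0.0277, with 5 of the 8 left-out regions each ending the call, as did 1 value per animal, with 0.226). Its exons share 0.756% of their bases with Gabrb1 on the other strand, which had 53867 counts against 17600 for Gabra4. None of 21 glutamate receptor subunits and none of 20 neuropeptide genes passed with edgeR or DESeq2; at an unadjusted p of 0.05, 4 and 2 did. Of 12 activity genes, Arc, which acts at synapses after neuronal activity, differed by 0.68 ± 0.19 (adjusted p = 0.0369) although neither set's own change passed (0.18 and -0.54), and it lost the call without any 1 of PFC, dDG, vCA1, CER or PVN (adjusted p from 0.05 to 0.632) and without the animal block (0.0637) or with 1 value per animal (0.05). Of 38 axon and adhesion genes, Nrp1, a co-receptor for semaphorins and VEGF, differed by 0.57 ± 0.11 (adjusted p = 0.00015). It fell in AMY, CER and PVN, with a change of -0.68 ± 0.10, and not detectably in the 5 regions (-0.12, adjusted p = 0.195), and it passed whichever region was left out but not with 1 value per animal (0.1).

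Of 20 tested RGS and G protein regulators, Rgs2 was the negative member and Rgs16 the positive one (background 0.642% and 0.697%). Rgs16 was low (0 to 18.6 CPM under vehicle in the 5 regions) except in PVN (mean 41.1 CPM), its exons share 10.1% of their bases with Gm28513 on the other strand, and its difference of 0.88 ± 0.25 did not pass without PVN (adjusted p = 0.505) and 4 other regions in turn, nor with 1 value per animal (0.0679). Of 23 TGF-beta and BMP genes, Smad3, which relays TGF-beta signals to the nucleus, differed by -0.30 ± 0.09 (adjusted p = 0.047, background 0.642%) and lost the call without any 1 of 5 regions and without the animal block (adjusted p = 0.0696) or with 1 value per animal (0.262). Smad3 changed by 0.04 ± 0.05 in the 5 regions and by 0.34 ± 0.08 in AMY, CER and PVN. The 5 regions disagreed in sign, from -0.42 in dCA1 to 0.45 in vCA1, and the change in vCA1 was above those of AMY, CER and PVN. None of 13 tested heat shock genes, 23 insulin, FoxO and mTOR genes and 13 MAPK feedback genes differed with edgeR or DESeq2; at an unadjusted p of 0.05, 0, 3 and 3 did.

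Cell type markers were compared in the same fit. Of 99 tested markers on 12 lists, 1 passed (background 1.34%), Prox1 (0.60 ± 0.17, adjusted p = 0.0359); at an unadjusted p of 0.05, 3 were positive and 1 negative. It rested on CER and vCA1: the change was -1.04 ± 0.14 in CER, from a mean of 129 to 61.6 CPM, and 0.80 ± 0.25 in vCA1, from 104 to 181 CPM. Without CER the adjusted p was 0.79, without vCA1 it was 0.326, and with 1 value per animal it was 0.258. The other 7 dentate granule cell genes on the list summed to a median of 123 CPM under vehicle and 223 CPM under dexamethasone in vCA1, of 842 and 582 CPM in dCA1, and of 139 and 143 CPM in CER. Their median was higher under dexamethasone in vCA1, as for Prox1, and not lower in CER. Their mean in CER was lower, as for Prox1, with 150 CPM (SD 43.0) under vehicle and 136 CPM (SD 22.6) under dexamethasone. The part of these 7 genes in the result was not tested. In the sets' own changes, where 8.62% of all genes fell in the 5 regions and 5.63% in the 3, 7 and 4 of 10 oligodendrocyte markers fell (median change -0.32 and -0.20). So did 6 and 5 of 10 microglial markers (median -0.23 in both). Of 11 markers of endothelium and pericytes, 5 and 6 fell and 2 and 1 rose (median -0.23 and -0.33). Of 10 astrocyte markers, 2 fell and 2 rose in the 5 regions, and 2 rose in the 3 (median -0.09 and -0.05). The 12 glutamatergic markers summed to a median of 912 CPM under vehicle and 919 CPM under dexamethasone in CER, where the means were 1360 and 916 CPM and the highest vehicle library was at 4640 CPM. The medians were 2720 and 2570 CPM in AMY and 1230 and 1180 CPM in PVN, and in the 5 regions they lay between 6170 and 11500 CPM and between 5630 and 11400 CPM. The 8 choroid plexus genes varied widely between libraries of dDG: there they summed to 204 to 16600 CPM (median 2110) under vehicle and 170 to 19400 CPM (median 469) under dexamethasone. None of the 6 tested passed with edgeR or DESeq2, also at an unadjusted p of 0.05. The part of these levels in the 148 differences was not tested.

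Vehicle levels differed between the sets for most genes, so that a vehicle difference among the 148 is not particular to them. Of all genes, 6483 (58.7%) passed, 29.4% higher and 29.2% lower in the 5 regions. Of the 77 genes with a positive difference in response, 41 were higher and 15 lower in the 5 regions under vehicle (median 0.18). Of the 71 with a negative one, 29 were higher and 22 lower (median 0.07). After dexamethasone 66 and 5 of the 77, and 15 and 48 of the 71, were higher and lower, where 61.5% of all genes passed (30.7% higher and 30.8% lower). The sets lay closer after dexamethasone in 13 of the 77 (16.9%) and in 26 of the 71 (36.6%), against 41.3% of all genes. The vehicle libraries enter both quantities, which are therefore not independent. In the plot of the sets' levels in each arm, Mthfd2 and Ccng1 cross the line of equal level, Zbtb16 and Dusp18 approach it, and Hr and Dhx33 move away from it.

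**Figure D5:**
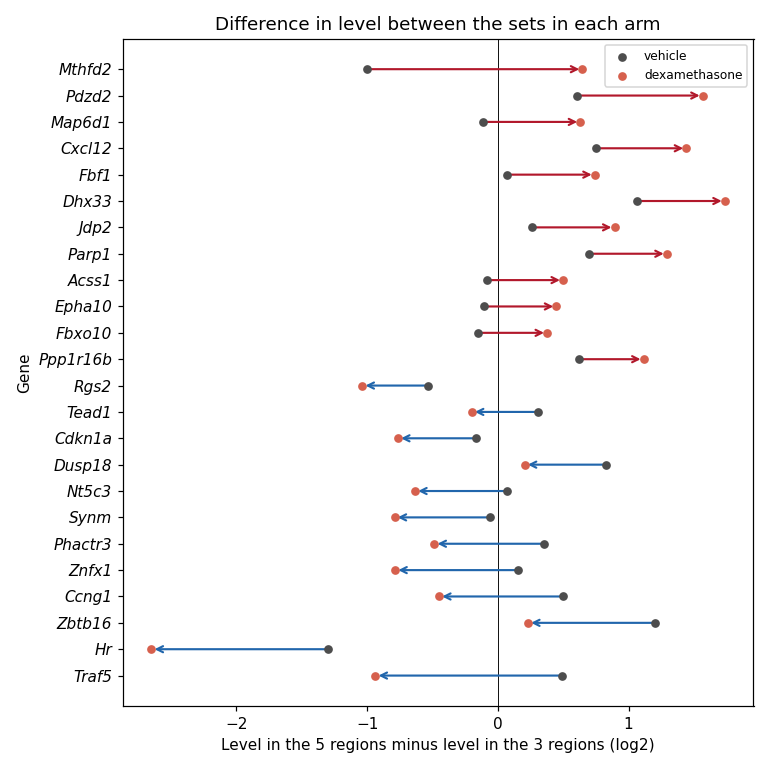
Difference in level between the sets (log2, 5 regions minus 3) under vehicle (dark) and under dexamethasone (red) for the 24 genes, with an arrow from the first to the second; the vertical line is equal level. Mthfd2 moves from -1.0 to 0.65, Ccng1 from 0.50 to -0.45, and Hr from -1.30 to -2.65.

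Promoter sequence is shown for the genes that held a match to the receptor's known element. Windows of 300 bases, from 250 before to 50 after a gene's start, came from RefSeq (GRCm38.p6) and were found for 20 of the 24 genes. They were searched for ACANNNTGT, the spacing of the paired arms of a glucocorticoid response element, which reads the same on both strands. Of 20 genes 2 held it (10.0%), Dhx33 with a positive and Znfx1 with a negative difference, where 6.19% of 113 genes of the 148 with a window and 5.06% of 8720 tested genes did. The 60 bases around each match are shown 5′ to 3′ along the gene's strand, with the match in capitals. In Dhx33 (chr11:71004531-71004590, minus strand) it lies 132 bases before the start. In Znfx1 (chr2:167043623-167043682, minus strand) it lies 161 bases before 1 RefSeq start that is inside the gene's span in the count table.
Dhx33: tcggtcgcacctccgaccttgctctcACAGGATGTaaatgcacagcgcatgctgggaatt
Znfx1: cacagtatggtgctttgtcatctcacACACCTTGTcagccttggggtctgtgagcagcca
A match is a description of these letters and does not show that the receptor binds there.

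At the threshold itself, the last 2 genes to pass were Cab39l (-0.51, adjusted p = 0.049) and Gjb2 (-0.90, adjusted p = 0.049). Cab39l did not pass without the animal block (0.0625), with 1 value per animal (0.0563) or without any 1 of PFC, dCA1, dDG, vCA1 or CER (0.077 to 0.798). Gjb2 did not pass without any 1 of PFC, dCA1, dDG, AMY, CER or PVN (0.0537 to 0.453). The first 2 that did not pass were Foxk1 (0.36, adjusted p = 0.0525) and Hey1 (0.24, adjusted p = 0.0546); without the block Foxk1 passed (0.0453).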

How the data were processed

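Per the submitters' processing notes, reads were handled with FastQC 0.11.4, cutadapt, UMI-tools 0.5.4, STAR 2.6.0a and featureCounts 1.6.4, on mm10. The authors deposited 1 table of raw counts per gene (27998 genes, 235 libraries), which was used as it stands. The authors' deposited variance-stabilised log2 values (DESeq2 1.30.1, R 4.0.5) list 228 libraries and served only to pick these for 1 alternative. Strand use in counting is not given in the sources used here. Symbols matched 27645 genes. Exon positions are those of the count table.

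Genes passing filterByExpr over 16 groups (11053, holding 98.9% of counts) were scaled by TMM. edgeR 4.0.16 (R 4.3.3) quasi-likelihood fits held animal (30 levels), region and region-by-treatment terms. Numbered libraries pair across regions because the labels tie each to 1 animal; the correlation within animals, from limma 3.58.1, was 0.01982. The change of each set used voom with the animal as random block, and vehicle and dexamethasone levels edgeR with the animal block. Adjusted p is Benjamini-Hochberg over all genes, with a threshold of 0.05. The SE is the absolute log2 value over the square root of F. Per-animal values used a prior count of 2.

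Libraries of a group differed by more than sampling noise (smallest chi-square per degree of freedom 1.34). Each group of 13 to 15 libraries came from as many animals. Named genes are the 12 with the smallest p in each direction with at least 5 CPM in a group, genes with opposite set changes, called members of the lists, and 2 genes on each side of the threshold; Klf7, Sox9, Sema4c and the genes of the closing section were named after their values were seen. The members and lists were chosen with earlier results of these data known. DESeq2 1.42.0, other scalings, filters, covariates and left-out regions were alternatives. Python 3.11.15, pandas 2.3.3, numpy 2.4.6 and matplotlib 3.10.9 were used.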

Additional observations from a re-analysis of the deposited data

Results flagged for a closer look

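The response of 24 named genes differed between the sets by the test of the difference itself, which is what marks them for a second look. Values are the log2 change of the 5 regions minus that of AMY, CER and PVN. Positive values were found for Mthfd2 (1.65), Pdzd2 (0.96), Map6d1 (0.75), Cxcl12 (0.69), Fbf1 (0.67), Dhx33 (0.67), Jdp2 (0.63), Parp1 (0.60), Acss1 (0.58), Epha10 (0.55), Fbxo10 (0.53) and Ppp1r16b (0.50). Negative values were found for Traf5 (-1.43), Hr (-1.35), Zbtb16 (-0.97), Ccng1 (-0.95), Znfx1 (-0.94), Phactr3 (-0.84), Synm (-0.73), Nt5c3 (-0.71), Dusp18 (-0.62), Cdkn1a (-0.59), Tead1 (-0.51) and Rgs2 (-0.50).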

How the results depend on the processing

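The count of 148 genes was 139 with no replicate block and 195 with a replicate block of region and number in place of the animal. Beside the calls given above, the fit with no replicate block changed none of the named genes' calls, and under the number block Nfkbia (adjusted p = 0.135) and Sgk1 (0.117) were lost and Foxk1 (0.0373) and Hey1 (0.0202) passed. It was 158 with DESeq2, 116 to 147 under other scalings and filters, 154 with RNA integrity and 162 with plate as covariates, 141 with limma and 160 in the libraries that the authors' variance-stabilised tables list. It was 50 without CER and 112 with 1 value per animal. At an adjusted p of 0.1 the positive count was 109 and the negative count 107. The balance of 77 positive against 71 negative genes turned round in 8 fits: 22 against 28 without CER, 44 against 72 without PVN, 62 against 84 without vCA1, 57 against 60 without dCA1, 60 against 62 without dDG, 45 against 67 with 1 value per animal, 67 against 74 with limma and 70 against 73 with upper-quartile factors. No named gene's difference changed sign under these alternatives; within dates of punching 1, 3, 4 and 5, 146, 145, 148 and 147 of the 148 differences had the same sign. Leaving out the 5 libraries with cerebellar markers, a choice made after seeing the data, gave 138 and ended the calls of Prox1 (adjusted p = 0.0555), Cab39l (0.0626) and Gjb2 (0.0717); plate as a covariate ended that of Gjb2 (0.0517). Of the first 2 genes that did not pass, Foxk1 and Hey1, both passed with DESeq2, with plate and with the stricter count filter, Foxk1 with RNA integrity, and Hey1 without the 5 libraries (adjusted p from 0.0326 to 0.0494). With 1 value per animal, 10 named genes lost their call (Nrp1, Nfkbia, Sgk1, Hlf, Gabra4, Prox1, Arc, Rgs16, Smad3 and Cab39l, adjusted p from 0.05 to 0.312). With limma and a random animal, 8 did (Nfkbia, Sgk1, Gabra4, Prox1, Arc, Rgs16, Smad3 and Gjb2, adjusted p from 0.054 to 0.278), and with no filter Rgs16, Smad3, Cab39l and Gjb2 did. The causes were not tested, except that fewer samples enter where a region is left out. Low genes such as Traf5 and Rgs16 rest on few counts per library, which limits their precision.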

Other observations

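The following genes among the 148 were chosen after their values were seen. Of the genes that rose in both sets and less in the 5 regions, Pmaip1, which encodes the pro-death protein Noxa, changed by 2.12 and 3.07, and Sgk3, a kinase related to Sgk1, by 1.14 and 2.00. Dio2, the deiodinase that makes active thyroid hormone, changed by 1.05 and 1.67, and Gadd45a, a growth arrest gene, by 0.49 and 1.31. Ppard, a nuclear receptor for fatty acids, rose in AMY, CER and PVN by 0.73, and its change of 0.20 in the 5 regions did not pass.

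Of the genes that rose in the 5 regions and did not pass in the 3, Nppc, the precursor of C-type natriuretic peptide, changed by 1.04 and -0.18, and P2ry1, a receptor for ADP, by 0.97 and 0.19. Slc27a3, a fatty acid transport protein, changed by 1.01 and 0.05, and Apaf1, the scaffold of the apoptosome, by 0.63 and 0.09. Neat1, a long noncoding RNA of nuclear paraspeckles, fell in AMY, CER and PVN, with a change of -0.69 there and -0.12 in the 5 regions.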
